A study of Homo sapiens with 6 samples.

Results

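The 38 genes described here are ATF4 and the genes of the amino acid stress response that acts through it. They were chosen by name: each is the 1 row of the count tables whose symbol matches a fixed list of 38 symbols, out of 23698 gene rows in all. All 38 had a row and all 38 passed the filter on low counts, among 13668 genes tested. The libraries came from MV4-11, an established acute myeloid leukaemia line with an internal tandem duplication in FLT3. One group carried an shRNA directed at PRMT5, delivered by lentivirus. PRMT5 is an arginine methyltransferase. The other group carried a scrambled hairpin. Both groups were stably transduced, were grown in the same medium with serum and had 3 libraries each. The labels do not say how many PRMT5 hairpins or transduced pools were used, nor whether the 3 libraries came from separate cultures.

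ATF4 is a basic leucine zipper transcription factor whose messenger RNA is always present but is translated well mainly when the initiation factor eIF2 is phosphorylated. The kinases EIF2AK4 (GCN2, which senses uncharged tRNA) and EIF2AK3 (PERK, which senses misfolded protein in the endoplasmic reticulum) are 2 of the enzymes that place that phosphate. ATF4 then pairs with C/EBP proteins on short composite elements and switches on genes that import amino acids, build them and charge tRNAs with them. It also switches on its own brakes and, under prolonged stress, genes linked to cell death. In leukaemia cells this response is known for sustaining asparagine, serine and cystine supply.

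Some libraries stood apart before any of these genes was considered. Levels are given as CPM, counts scaled to library depth with TMM factors. PRMT5 was at 103, 71.6 and 53.0 CPM in knockdown libraries 1 to 3, against 133, 53.2 and 158 CPM in control-labelled libraries 1 to 3. The library labelled control 2 thus held PRMT5 at the level of the knockdown group, against its label, and PRMT5 did not pass the test (log2 difference −0.60, edgeR quasi-likelihood adjusted p = 0.926). Across all tested genes, the log2 CPM of that library correlated with the other 5 at 0.876 to 0.923. Knockdown 3 and control 3 correlated at 0.995, and 83.0% of tested genes differed between these libraries by less than 0.25 on the log2 scale. Totals were 16408484 to 19077106 estimated counts per library. The 8 myeloid markers were all detected in every library, at 2.40 CPM or more, and summed to 1173 to 2150 CPM in knockdown and 1062 to 1900 CPM in control libraries. Their single levels shifted widely: MPO spanned 56.5 to 212 CPM in knockdown and 13.8 to 503 CPM in control libraries, and LYZ 482 to 1268 CPM in knockdown and 35.3 to 980.05 CPM in control libraries, with the library labelled control 2 lowest in both. HOXA9 and MEIS1 were at 296 and 102 CPM in that library and at most 96.2 and 32.9 CPM in the other 5. CSF1R spanned 2.40 to 14.7 CPM in knockdown and 5.25 to 18.3 CPM in control libraries, lowest in knockdown 1. T cell markers summed to 0 in knockdown and at most 0.0567 CPM in control libraries, with CD3E and CD2 listed at 0. B cell markers summed to at most 0.729 CPM in knockdown and 1.59 CPM in control libraries. Fibroblast markers summed to at most 0.324 CPM in knockdown and 4.99 CPM in control libraries, with COL1A2 listed at 0. Epithelial markers summed to 16.9 to 27.9 CPM in knockdown and 15.1 to 52.1 CPM in control libraries, from KRT8 and KRT18, with EPCAM listed at 0. The part of these markers in the differences below was not tested. In these bulk libraries, fewer cells of a state and less RNA per cell cannot be told apart.

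The composite element that ATF4 binds with C/EBP partners has the core TGATGNAA. Both strands of a window from 250 bases before to 50 bases after each RefSeq gene start (GRCh38.p14) were searched for it, with no second motif that could overlap. Of the 38 genes, 31 had a window, and 6 of these (19.4%) held the core. Of all full-length RefSeq windows, not limited to the genes tested, 1270 of 35116 did (3.62%). The 38 genes were chosen as ATF4 and its response genes, so these shares are a description and no test. The genes without a window were NUPR1, PSPH, SHMT2, ALDH1L2, PYCR1, GPT2 and SLC7A11. The 6 matches are shown because they let the sequence be set beside the level of its gene. Each stretch is read 5′ to 3′ in the direction of the gene, with at most 36 bases on each side and the match in capitals, which reads TTGCATCA where it lies on the opposite strand.
CHAC1, chr15:40953226-40953305, plus strand: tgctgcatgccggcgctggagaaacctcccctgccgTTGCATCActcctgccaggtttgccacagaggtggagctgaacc
SLC7A1, chr13:29595639-29595717, minus strand: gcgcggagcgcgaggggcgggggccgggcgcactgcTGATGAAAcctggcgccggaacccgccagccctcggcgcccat
GOT1, chr10:99430779-99430858, minus strand: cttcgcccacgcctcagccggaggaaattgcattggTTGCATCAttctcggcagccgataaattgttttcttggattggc
SLC1A5, chr19:46784868-46784947, minus strand: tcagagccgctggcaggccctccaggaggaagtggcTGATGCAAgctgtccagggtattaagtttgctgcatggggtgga
SLC1A4, chr2:64989356-64989435, plus strand: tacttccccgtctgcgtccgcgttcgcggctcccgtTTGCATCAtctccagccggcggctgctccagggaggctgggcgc
CEBPG, chr19:33374035-33374114, plus strand: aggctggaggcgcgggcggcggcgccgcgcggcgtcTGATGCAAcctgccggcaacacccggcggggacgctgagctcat
The first base of the match lay 209 bases before the gene start in CHAC1, 198 in GOT1, 97 in SLC1A5, 42 in CEBPG and 7 in SLC1A4, and was base 8 after it in SLC7A1. CHAC1, GOT1 and SLC1A4 share the letters TTGCATCA, and SLC1A5 and CEBPG hold the same 8 letters on the other strand, while the match of SLC7A1 reads TGATGAAA. These are matches of letters in a window, and binding was not measured. Among genes with the core, log2 differences between the groups ran from −0.053 (CEBPG) to 2.21 (CHAC1). Among genes whose window lacked it, they ran from −1.51 (PPP1R15A) to 2.12 (GDF15). A link between the core and the level was not tested.

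Across the 38 genes, those that import or build amino acids lay above control in the knockdown group, while 6 of the 9 sensors, feedback factors and transcription factors lay below it. The log2 difference, taken as knockdown minus control, exceeded 0 for 32 of 38 genes, with a median of 0.68, beside 49.9% and a median of −0.00069 over all genes tested. All 23 enzymes and transporters lay above 0 (median 0.72, range 0.17 to 2.11), as did all 6 stress effectors (median 1.49). The 9 sensors, feedback factors and transcription factors had 3 above and 6 below 0 (median −0.25). That contrast rested on the library labelled control 2. Without that library, 37 of the 38 genes lay above 0, beside 50.4% of all tested genes. The 37 included 2 of the 3 sensors and feedback factors and 6 of the 6 transcription factors. No gene passed the test. With edgeR's quasi-likelihood test and Benjamini-Hochberg adjustment over 13668 genes, 0 of the 38 had an adjusted p under 0.05 (0% of all tested genes did), and the adjusted p-values ran from 0.926 to 0.990. The 95% confidence interval of the difference lay above 0 for 2 of the 38, SLC7A11 and CHAC1, which were also the 2 genes with an unadjusted p under 0.05 (0.571% of all tested genes had such a p and were higher in the knockdown group, and 1.2% were lower). With DESeq2 none was called and 8 of the 38 had an unadjusted p under 0.05 (3.37% of all tested genes), and with limma-voom none was called and 2 did (0.856% of all tested genes). With the replicate number as a block none was called either, and 11 of the 38 had an unadjusted p under 0.05 (3.19% of all tested genes, edgeR).

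The differences were uneven across the libraries. Knockdown 1 was the highest of the 6 libraries for 30 of the 38 genes, where it was the highest for 18.5% of all tested genes. For the 23 enzymes and transporters, knockdown 1 was above every control for 23 (24.5% of all tested genes), knockdown 2 for 20 (20.6%) and knockdown 3 for 3 (17.4%). The library labelled control 2 was below controls 1 and 3 for 19 of those 23 genes, a position it held for 44.6% of all tested genes. For the 9 sensors and transcription factors it was instead above controls 1 and 3 for 7, and for none below (41.9% of all tested genes were above). The summed level of the 23 enzymes and transporters was 8553, 6204 and 3985 CPM in knockdown libraries 1 to 3, against 4567, 2522 and 4135 CPM in control-labelled libraries 1 to 3. The sum in knockdown 3 was below those of controls 1 and 3, so the groups overlapped. All 3 knockdown libraries lay above all 3 controls for 3 of the 38 genes (7.89%), against 3.14% of all tested genes, and below all of them for 0 (3.10% of all tested genes). Without knockdown 3, the 2 remaining knockdown libraries were above every control for 24 genes and below every control for 1 (10.9% and 10.4% of all tested genes). Without knockdown 1 and the library labelled control 2, an alternative chosen after seeing the data, the median log2 difference was 0.18 with 29 of 38 genes above 0, and 33 of the 38 differences were over 1.5 times smaller or had turned. Leaving out knockdown 1 alone did so for 21 of the 38, and leaving out the library labelled control 2 alone for 16. The other 4 libraries, left out singly, did so for at most 6 of the 38.

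**Figure D1:**
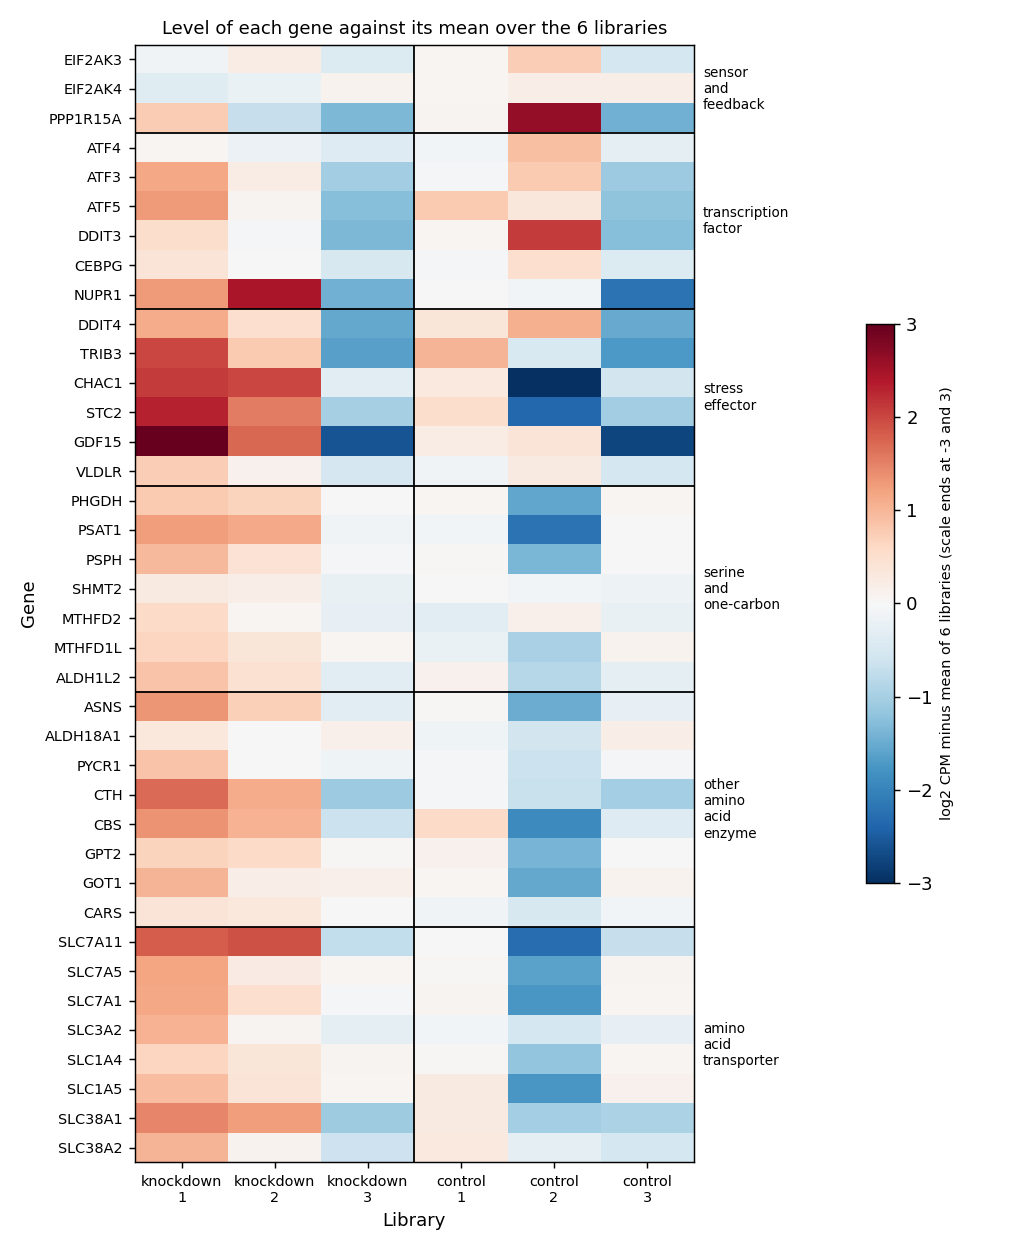
Heat map of each gene's log2 CPM minus its mean over the 6 libraries, with knockdown libraries on the left, control libraries on the right and genes grouped by role. Most enzyme and transporter genes are red in knockdown 1 and 2 and blue in control 2, whereas PPP1R15A, DDIT3 and ATF4 are red in control 2, and the colour scale ends at −3 and 3.

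The 2 kinases and the feedback phosphatase subunit had log2 differences below 0. EIF2AK4, the GCN2 kinase, was at 29.6, 32.9 and 41.0 CPM in knockdown libraries 1 to 3, against 39.4, 43.7 and 43.5 CPM in control-labelled libraries 1 to 3, a log2 difference of −0.29 (SE 0.21). Its lowest 2 libraries were knockdown 1 and 2, and knockdown 3 overlapped the controls. EIF2AK3, the PERK kinase, was at 17.6, 22.0 and 14.2 CPM in knockdown libraries 1 to 3, against 19.6, 31.6 and 12.9 CPM in control-labelled libraries 1 to 3, with the groups overlapping and a log2 difference of −0.25. PPP1R15A (GADD34) encodes the subunit that brings a phosphatase to eIF2 and ends the response. It was at 92.0, 33.3 and 21.2 CPM in knockdown libraries 1 to 3. Controls 1 and 3 held 57.4 and 19.9 CPM, while the library labelled control 2 held 340.00 CPM. Its log2 difference was −1.51 (95% confidence interval −3.85 to 0.83), and 0.34 without the library labelled control 2.

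For ATF4 messenger RNA the mean was 451 ± 69.0 CPM in knockdown libraries and 610.4 ± 287 CPM in control libraries (SD, n = 3 each). It was at 522, 446 and 384 CPM in knockdown libraries 1 to 3, against 477, 939.6 and 415 CPM in control-labelled libraries 1 to 3. The library labelled control 2 was the highest of the 6, and the other 5 lay within 384 to 522 CPM. The log2 difference was −0.44 (SE 0.34, 95% confidence interval −1.24 to 0.37) and 0.018 without that library. These libraries measure messenger RNA, so ATF4 protein was not read out. DDIT3 (CHOP), a C/EBP family factor linked to cell death under lasting stress, was at 69.2, 46.2 and 18.8 CPM in knockdown libraries 1 to 3, against 49.4, 205 and 19.6 CPM in control-labelled libraries 1 to 3. Its control mean was set by the library labelled control 2, without which the log2 difference was 0.38 in place of −1.03. CEBPG, a C/EBP partner of ATF4 whose start region holds the core shown above, was at 248, 189.6 and 135 CPM in knockdown libraries 1 to 3, against 184, 268 and 143 CPM in control-labelled libraries 1 to 3 (log2 difference −0.053, and 0.014 under total-count scaling).

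ATF3, ATF5 and NUPR1 overlapped between the groups. ATF3, an induced repressor and activator of stress genes, was at 56.5, 29.2 and 12.2 CPM in knockdown libraries 1 to 3, against 24.5, 43.1 and 11.8 CPM in control-labelled libraries 1 to 3. ATF5, which like ATF4 is controlled through upstream reading frames, was at 148, 63.7 and 24.8 CPM in knockdown libraries 1 to 3, against 105, 76.4 and 25.9 CPM in control-labelled libraries 1 to 3. In both genes knockdown 1 was the highest library and both libraries numbered 3 the lowest, and without knockdown 1 the log2 differences turned to −0.37 and −0.65. NUPR1, a small chromatin-binding stress protein, was at 8.77, 20.0 and 1.24 CPM in knockdown libraries 1 to 3, against 3.52, 3.37 and 0.673 CPM in control-labelled libraries 1 to 3. Knockdown 1 and 2 were above every control and knockdown 3 below controls 1 and 2, and the log2 difference was 1.99 (SE 0.97, unadjusted p = 0.0769, adjusted p = 0.926, edgeR). Without knockdown 2 its log2 difference was 1.00.

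Among the stress effectors, CHAC1 had the largest log2 difference of the 38 genes. CHAC1 degrades glutathione. It was at 49.97, 47.0 and 9.35 CPM in knockdown libraries 1 to 3, against 14.2, 0.908 and 7.87 CPM in control-labelled libraries 1 to 3. Knockdown 1 and 2 were above every control, knockdown 3 lay between controls 1 and 3, and the library labelled control 2 held 14.0 counts. The mean was 35.4 ± 22.6 CPM in knockdown libraries and 7.66 ± 6.64 CPM in control libraries (SD, n = 3 each). The log2 difference was 2.21 (SE 0.93, 95% confidence interval 0.028 to 4.39, adjusted p = 0.926, edgeR), and it was 1.69 without the library labelled control 2. STC2, a secreted glycoprotein of calcium and phosphate balance, was at 179, 104 and 17.8 CPM in knockdown libraries 1 to 3, against 51.2, 6.94 and 17.4 CPM in control-labelled libraries 1 to 3, a log2 difference of 1.99 (SE 0.92). GDF15, a secreted stress cytokine of the TGF-beta family, was at 165, 69.2 and 3.35 CPM in knockdown libraries 1 to 3, against 24.3, 27.3 and 3.00 CPM in control-labelled libraries 1 to 3 (log2 difference 2.12, SE 1.22). In STC2 and GDF15, knockdown 1 and 2 were again above every control, while knockdown 3 was within the range of the controls. Without knockdown 1 the log2 differences were 1.27 for STC2 and 0.99 for GDF15, and without control 1 that of STC2 was 3.03.

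TRIB3, a pseudokinase that binds and restrains ATF4 and DDIT3, was at 355, 155 and 28.7 CPM in knockdown libraries 1 to 3, against 180.03, 65.3 and 27.0 CPM in control-labelled libraries 1 to 3. Only knockdown 1 exceeded control 1, and the log2 difference of 0.98 (SE 0.92) became 0.015 without knockdown 1. DDIT4 (REDD1), an inhibitor of mTORC1, was at 1687, 1105 and 266 CPM in knockdown libraries 1 to 3, against 1005, 1634 and 271 CPM in control-labelled libraries 1 to 3. For DDIT4 knockdown 1 was narrowly above every control, and the groups overlapped. VLDLR, a lipoprotein receptor, was at 154, 100.3 and 64.9 CPM in knockdown libraries 1 to 3, against 85.8, 111 and 63.9 CPM in control-labelled libraries 1 to 3. The log2 differences of DDIT4 and VLDLR were 0.072 and 0.29, and they turned to −0.51 and −0.078 without knockdown 1.

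**Figure D2:**
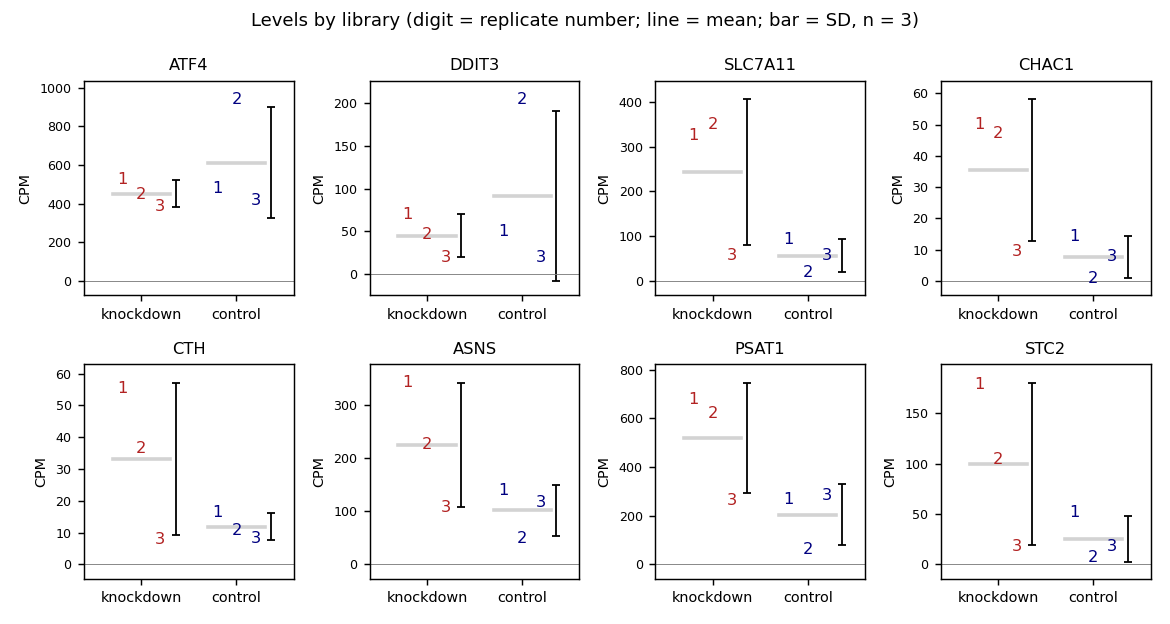
CPM by library for ATF4, DDIT3 and the 6 genes with the smallest unadjusted p (SLC7A11, CHAC1, CTH, ASNS, PSAT1 and STC2), with the replicate number as the symbol, the mean as a grey line and the SD (n = 3) as a bar, knockdown left of control. In these 6 genes knockdown 1 and 2 lie above every control and knockdown 3 does not, while for ATF4 and DDIT3 control 2 is the highest library.

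Of the serine and one-carbon genes, 7 of 7 lay above 0, with a median log2 difference of 0.69. Serine synthesis from glycolysis runs through PHGDH, PSAT1 and PSPH in turn. PSAT1 was at 679.7, 622 and 262 CPM in knockdown libraries 1 to 3, against 267, 60.7 and 285 CPM in control-labelled libraries 1 to 3, a log2 difference of 1.35 (SE 0.60, 95% confidence interval −0.056 to 2.76). PHGDH was at 437, 404 and 258 CPM in knockdown libraries 1 to 3, against 264, 87.2 and 265 CPM in control-labelled libraries 1 to 3 (log2 difference 0.83). PSPH was at 104, 72.7 and 51.4 CPM in knockdown libraries 1 to 3, against 55.0, 20.5 and 52.5 CPM in control-labelled libraries 1 to 3 (log2 difference 0.84). In all 3 genes the order of the libraries had knockdown 1 first, knockdown 2 second and the library labelled control 2 last, with knockdown 3 below at least 1 control.

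The folate genes of this group differed in size. MTHFD1L, which makes formate in mitochondria, was at 239, 197 and 160.2 CPM in knockdown libraries 1 to 3, against 135, 78.8 and 165 CPM in control-labelled libraries 1 to 3 (log2 difference 0.65, SE 0.31). ALDH1L2, the mitochondrial formyl-tetrahydrofolate dehydrogenase, was at 351, 264 and 154 CPM in knockdown libraries 1 to 3, against 211, 107 and 158 CPM in control-labelled libraries 1 to 3 (log2 difference 0.69). Both had knockdown 1 and 2 above every control. SHMT2, which moves a carbon from serine to folate, and MTHFD2, the next mitochondrial step, had smaller log2 differences of 0.17 and 0.29. SHMT2 was at 626, 595 and 450.2 CPM in knockdown libraries 1 to 3, against 526, 491 and 469.5 CPM in control-labelled libraries 1 to 3. For SHMT2 knockdown 1 and 2 were above every control and knockdown 3 below every control. MTHFD2 was at 528, 373 and 303 CPM in knockdown libraries 1 to 3, against 288, 396 and 303 CPM in control-labelled libraries 1 to 3, and was the 1 enzyme or transporter for which the library labelled control 2 was above controls 1 and 3.

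Of the other enzymes of amino acid metabolism, 8 of 8 lay above 0, with a median log2 difference of 0.76. ASNS makes asparagine, and is the best known ATF4 target in leukaemia treated with asparaginase. It was at 342, 226 and 108 CPM in knockdown libraries 1 to 3, against 139.5, 48.5 and 116 CPM in control-labelled libraries 1 to 3. The mean was 225 ± 117 CPM in knockdown libraries and 101 ± 47.3 CPM in control libraries (SD, n = 3 each). Knockdown 1 and 2 were above every control and knockdown 3 below controls 1 and 3, for a log2 difference of 1.15 (SE 0.51, 95% confidence interval −0.038 to 2.34). CTH and CBS are the enzymes that turn homocysteine into cysteine. CTH was at 55.5, 36.4 and 7.89 CPM in knockdown libraries 1 to 3, against 16.5, 10.6 and 8.24 CPM in control-labelled libraries 1 to 3 (log2 difference 1.498, SE 0.64). CBS was at 94.6, 76.5 and 23.6 CPM in knockdown libraries 1 to 3, against 55.1, 9.73 and 28.3 CPM in control-labelled libraries 1 to 3 (log2 difference 1.06, SE 0.68). In CTH and CBS too, knockdown 1 and 2 were the 2 highest libraries, and knockdown 3 was below control 3.

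GOT1, the cytosolic aspartate aminotransferase, and CARS, the cysteinyl-tRNA synthetase, were 2 of the 3 genes whose groups did not overlap. GOT1 was at 65.9, 37.3 and 35.96 CPM in knockdown libraries 1 to 3, against 33.9, 11.0 and 34.9 CPM in control-labelled libraries 1 to 3, so that knockdown 3 exceeded control 3 only narrowly. CARS was at 106, 101 and 80.1 CPM in knockdown libraries 1 to 3, against 75.8, 58.0 and 76.2 CPM in control-labelled libraries 1 to 3. Their log2 differences were 0.80 (SE 0.47) and 0.45 (SE 0.22), and the margins between the groups were narrow. GPT2, the mitochondrial alanine aminotransferase, was at 199, 187 and 128 CPM in knockdown libraries 1 to 3, against 138, 47.6 and 126 CPM in control-labelled libraries 1 to 3 (log2 difference 0.72). The proline genes PYCR1 and ALDH18A1 had log2 differences of 0.52 and 0.29. PYCR1 was at 212, 115 and 107 CPM in knockdown libraries 1 to 3, against 114, 74.6 and 113 CPM in control-labelled libraries 1 to 3, with knockdown 1 alone well above the controls. ALDH18A1 was at 151, 123 and 134 CPM in knockdown libraries 1 to 3, against 111, 82.7 and 140.01 CPM in control-labelled libraries 1 to 3, with overlapping groups.

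Of the transporters, 8 of 8 lay above 0, with a median log2 difference of 0.80. SLC7A11, the cystine importer that feeds glutathione synthesis, had the smallest p of the 38 genes. Its log2 difference was 2.11 (SE 0.77, 95% confidence interval 0.31 to 3.90, unadjusted p = 0.0272, adjusted p = 0.926, edgeR). Its mean was 243 ± 163 CPM in knockdown libraries and 56.4 ± 36.9 CPM in control libraries (SD, n = 3 each). By library it was at 325, 348 and 55.9 CPM in knockdown libraries 1 to 3, against 92.6, 18.9 and 57.7 CPM in control-labelled libraries 1 to 3. Knockdown 3 was below controls 1 and 3, and without knockdown 1 and the library labelled control 2 the difference was 1.44. SLC3A2 is the heavy chain that SLC7A11 and SLC7A5 need at the membrane. It was at 656, 334 and 264 CPM in knockdown libraries 1 to 3, against 298, 221 and 268 CPM in control-labelled libraries 1 to 3 (log2 difference 0.67). SLC7A5 (LAT1), the importer of large neutral amino acids, was at 1153, 603 and 523 CPM in knockdown libraries 1 to 3, against 516, 168 and 536 CPM in control-labelled libraries 1 to 3 (log2 difference 0.90, SE 0.50). The tables also list its pseudogenes SLC7A5P1 and SLC7A5P2, with up to 232 and 896 counts in a library, so its reads may be divided among near-identical copies.

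The remaining transporters had knockdown 1 as their highest library, and the lowest was the library labelled control 2 for SLC7A1, SLC1A5 and SLC1A4 but knockdown 3 for SLC38A1 and SLC38A2. SLC7A1, the arginine and lysine importer, was at 521, 326 and 222 CPM in knockdown libraries 1 to 3, against 247, 68.7 and 241 CPM in control-labelled libraries 1 to 3. SLC1A5, a glutamine importer, was at 477, 327 and 260.3 CPM in knockdown libraries 1 to 3, against 304, 74.4 and 275 CPM in control-labelled libraries 1 to 3. SLC1A4, a carrier of alanine, serine and cysteine, was at 178, 146 and 120.03 CPM in knockdown libraries 1 to 3, against 115, 49.5 and 119 CPM in control-labelled libraries 1 to 3. SLC1A4 was the third gene whose groups did not overlap, by a narrow margin between knockdown 3 and control 3. The log2 differences of SLC7A1, SLC1A5 and SLC1A4, whose matches are printed above, were 0.94, 0.70 and 0.65. The sodium-coupled neutral carrier SLC38A1 was at 403, 348 and 69.5 CPM in knockdown libraries 1 to 3, against 176, 71.9 and 75.2 CPM in control-labelled libraries 1 to 3 (log2 difference 1.35, SE 0.65). Its relative SLC38A2 was at 650.1, 342 and 206 CPM in knockdown libraries 1 to 3, against 388, 267 and 222 CPM in control-labelled libraries 1 to 3 (log2 difference 0.45, and −0.10 without knockdown 1).

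**Figure D3:**
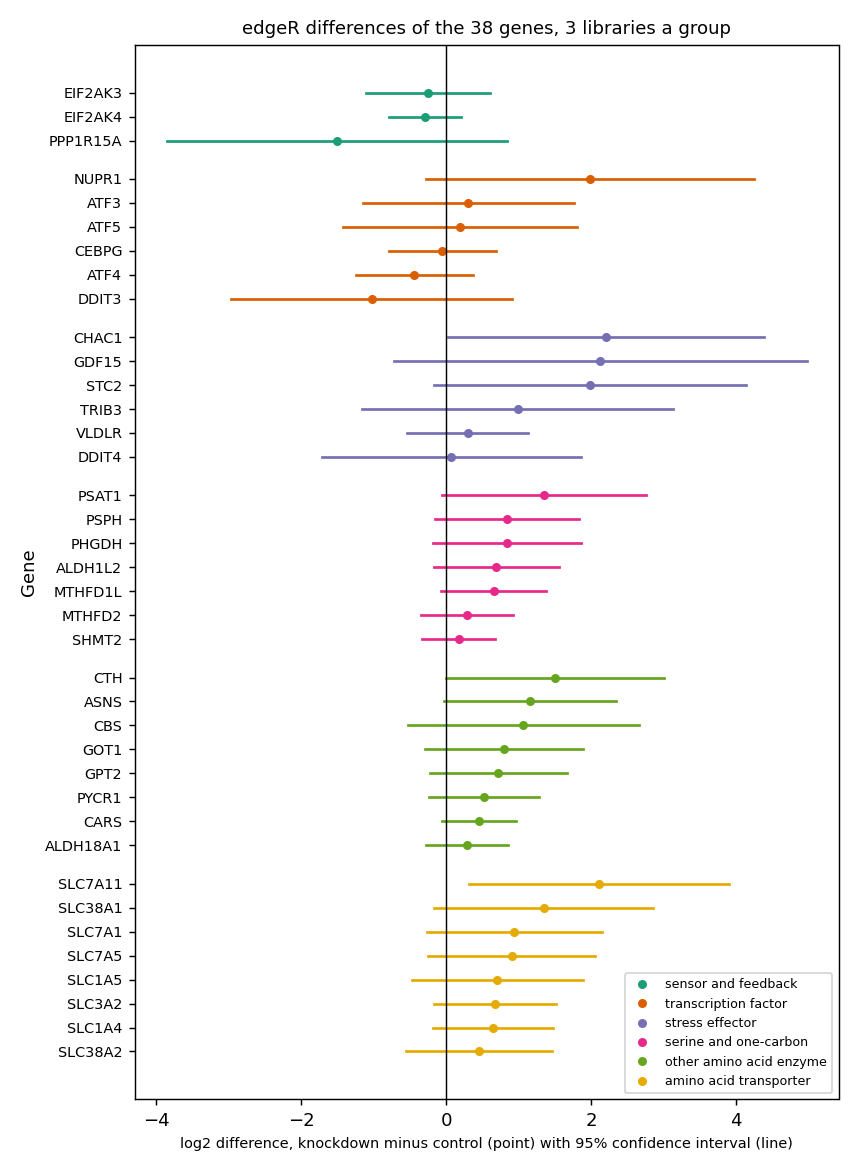
Log2 difference of knockdown minus control for each of the 38 genes from edgeR (point) with its 95% confidence interval (line), coloured by role. The points of all 23 enzymes and transporters lie to the right of 0, and the intervals of all 38 genes but SLC7A11 and CHAC1 span 0.

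The groups share the replicate numbers 1 to 3, and the differences were also read within each number. In pair 1 the median log2 difference of the 38 genes was 0.83, with 36 above 0, and in pair 2 it was 1.31, with 27 above 0. In pair 3 it was −0.037, with 13 above 0. There 36 of the 38 genes differed by less than 0.25, as did 83% of all tested genes. The medians over all tested genes were near 0 in each pair, at −0.0044, 0.050 and −0.0016. The typical size of a difference also varied by pair. The median absolute difference of the 38 genes was 0.83, 1.45 and 0.065 in pairs 1 to 3, beside 0.29, 0.60 and 0.096 over all tested genes. Of the 23 enzymes and transporters, 23 were above 0 in pair 1, 22 in pair 2 and 4 in pair 3. Of the 9 sensors and transcription factors, 7 were above 0 in pair 1 and 1 in pair 2. All 3 pairs were above 0 for 9 of the 38 genes (23.7%, beside 14.7% of all tested genes) and below 0 for 1, EIF2AK4 (14.1% of all tested genes). Pair 3 is the pair in which PRMT5 itself differed most, at 53.0 CPM in knockdown 3 and 158 CPM in control 3. In pairs 1 and 2 the log2 differences of PRMT5 were −0.36 and 0.43, so in pair 2 PRMT5 was higher in the knockdown library. The part of the PRMT5 level in the differences of the 38 genes was not tested.

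**Figure D4:**
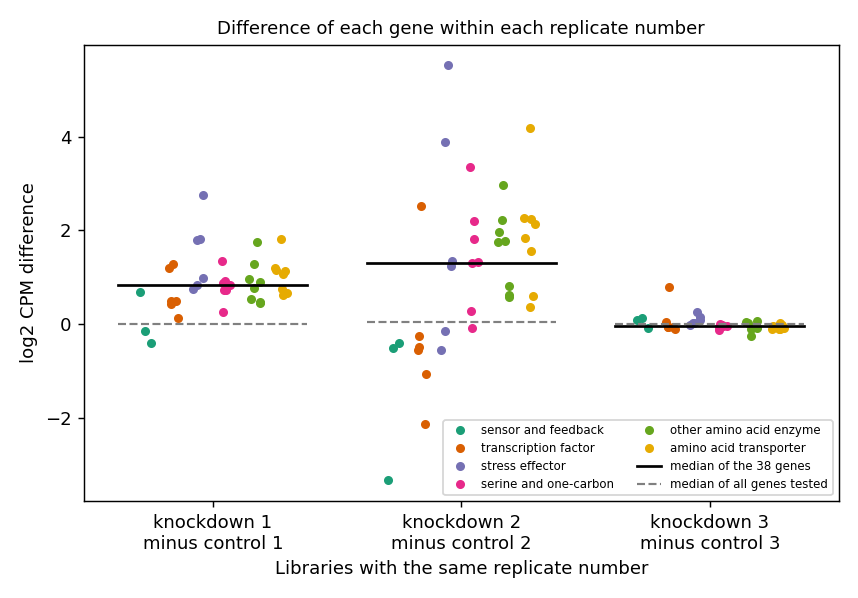
Log2 CPM difference of each of the 38 genes within libraries of the same replicate number, coloured by role, with the median of the 38 genes as a solid line and that of all tested genes as a dashed line. The solid line stands at 0.83, 1.31 and −0.037 in pairs 1 to 3, and the points of pair 3 lie close to 0.

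Other genes of the same pathway, from 4 further lists of 81 symbols, had medians nearer to 0, and none of those tested passed the test. Among other reported ATF4 targets, 23 of 32 tested genes lay above 0 with a median log2 difference of 0.22. The 3 with the smallest p in that list were SLC6A9, a glycine carrier, at 19.1, 9.42 and 1.41 CPM in knockdown libraries 1 to 3, against 3.52, 0.324 and 1.04 CPM in control-labelled libraries 1 to 3; EIF4EBP1, a translation repressor, with a log2 difference of 0.80; and KLHL24 with −2.19. KLHL24 was at 287 CPM in the library labelled control 2 and at most 31.0 CPM elsewhere. Of the cytosolic tRNA synthetases other than CARS, 14 of 17 lay above 0 with a median of 0.39, and GARS, NARS and MARS, the 3 with the smallest p, were at log2 differences of 0.67, 0.69 and 0.83. GARS was at 487, 396 and 327 CPM in knockdown libraries 1 to 3, against 256, 165 and 336 CPM in control-labelled libraries 1 to 3, with knockdown 3 below control 3. Without knockdown 1 and the library labelled control 2, the synthetase median was 0.053, with 11 of 17 above 0.

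The branches that feed into or run beside ATF4 stood nearer to 0. Genes of the eIF2 complex, its exchange factor, kinases and phosphatase were listed with EIF2A, GCN1L1 and IMPACT, which belong to none of these. Of this list, 8 of 14 lay above 0, with a median of 0.059. EIF2A, GCN1L1 and PPP1R15B had the smallest p in that list, at log2 differences of −0.44, 0.33 and −0.66. PPP1R15B, the constitutive partner of PPP1R15A, was at 224, 201 and 173 CPM in knockdown libraries 1 to 3, against 165, 601 and 180.05 CPM in control-labelled libraries 1 to 3, so the library labelled control 2 was again the highest. Genes of the ATF6 and XBP1 arms of the unfolded protein response lay above 0 for 8 of 14, with a median of 0.10. DNAJB9, CALR and SEL1L had the smallest p there, at −0.82, 0.34 and 0.33. HSPA5 (BiP), the main chaperone of the endoplasmic reticulum, was at 565, 406 and 401 CPM in knockdown libraries 1 to 3, against 369, 648 and 405 CPM in control-labelled libraries 1 to 3. It was named after its values were seen.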

How the data were processed

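Libraries were prepared from poly(A) RNA, per the labels' protocols. The authors deposited 1 table per library, and its values are estimated counts per gene with no scaling to depth. CASAVA 1.9, TopHat2 version 2, edgeR and hg19 are named without roles, per the submitters' processing notes. How reads were counted, with which annotation and with what regard to strand is not given in the sources used here, so overlapping, antisense and near-identical genes can share reads. Between 40.3% and 42.3% of the values were whole (tolerance 1e-06). At least 35 of the 38 genes had a value that was not whole in each library, and the values were rounded to whole numbers.

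Genes kept by filterByExpr (minimum count 10) were fitted with edgeR 4.0.16 in R 4.3.3 (TMM, glmQLFit, glmQLFTest, group as the only term, two-sided, Benjamini-Hochberg over all genes tested, threshold 0.05). Single-gene p-values are from that fit unless another tool is named. Differences are knockdown minus control, and the log2 CPM of single libraries had a prior count of 2. The genes, lists and tests were chosen with earlier results of these data known. All 38 genes are named, with up to 3 genes of smallest p from each other list. Exact permutation was not run, since 3 against 3 libraries can reach no p below 0.1. The p-values measure only the spread between these libraries, which may be technical, and read counts without molecular identifiers also carry amplification error. Erythroid markers are not reported here.

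Replicate numbers come from the titles. The deviations of same-numbered libraries from their group means correlated at 0.127, 0.394 and 0.566 over genes, each above 0.1, so they are described as pairs, from the values and not from a stated batch. Knockdown 2 and control 1, which carry different numbers, correlated at 0.164, above the 0.127 of pair 1. The values thus do not single out pair 1. By log2 CPM itself, knockdown 2 correlated with control 2 at 0.909, below its 0.976 with control 1 and 0.952 with control 3. Control 2 correlated with knockdown 1 and knockdown 3 at 0.884 and 0.880. Pair 2 therefore rests on the deviations alone when read from knockdown 2. The alternatives comprised scaling by RLE, by upper quartile or by total counts, other count filters, DESeq2 1.42.0, limma-voom (limma 3.58.1), a replicate block and libraries left out. Start windows came from RefSeq (GRCh38.p14), another build than the counts. The last 30 bases of 26 of the 31 windows were found in a GENCODE transcript of the gene in the same direction, and none on the reverse strand.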

Additional observations from a re-analysis of the deposited data

How the results depend on the processing

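No gene was called under any setting run. The median log2 difference of the 38 genes stayed above 0 in all of them, from 0.68 to 0.72 under the other scalings, filters and tools and the replicate block. It ran from 0.42 (without knockdown 1) to 0.89 (without knockdown 3) when single libraries were left out, and was 0.52 without both libraries numbered 2. Of the settings chosen after seeing the data, leaving out both libraries numbered 3 gave 0.999 and leaving out knockdown 1 with control 2 gave 0.18. PRMT5 ran from −0.94 to −0.29 when single libraries were left out. The replicate block changed no call, with an adjusted p of 0.709 at the lowest. The number of the 38 genes without overlap between groups was 3, and 3 to 25 when single libraries were left out: 25 without knockdown 3 (24 higher and 1 lower, beside 10.9% and 10.4% of all tested genes), 7 without control 1 (6 and 1, beside 7.07% and 6.58%) and 6 without control 3 (6 and 0, beside 12.7% and 14%). The number was 3 (3 higher and 0 lower) without knockdown 1, without knockdown 2 and without control 2. Of all tested genes, 4.9%, 6.77% and 5.46% were higher without overlap in these settings, and 5.08%, 6.94% and 4.79% lower. The number was 26 without both libraries numbered 3 (25 and 1, beside 20.1% and 19.9%). Fewer libraries make overlap less likely by construction.

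Some log2 differences turned, and the cause was not tested. CEBPG turned to 0.014 under total-count scaling. When single libraries were left out, values ran from −0.51 to 0.14 for EIF2AK3, −2.37 to 0.34 for PPP1R15A, −0.65 to 0.018 for ATF4, −1.51 to 0.38 for DDIT3 and −0.29 to 0.23 for CEBPG, each highest without the library labelled control 2. They ran from −0.37 to 0.85 for ATF3, −0.65 to 0.62 for ATF5, −0.51 to 0.68 for DDIT4, −0.078 to 0.55 for VLDLR and −0.095 to 0.76 for SLC38A2, each lowest without knockdown 1. Turns also came without knockdown 3 for CEBPG (0.14) and without control 3 for ATF3 (−0.048), ATF5 (−0.20) and DDIT4 (−0.37). Without both libraries numbered 2 it was 0.55 for PPP1R15A, 0.022 for ATF4, 0.35 for DDIT3 and 0.23 for CEBPG. Without knockdown 1 and control 2 it was 0.16 for EIF2AK3, −0.56 for ATF5, −0.17 for TRIB3, −0.030 for PYCR1 and −0.15 for SLC38A2. Depth limits NUPR1 most, at 0.673 to 20.0 CPM.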
